A study of Mus musculus with 24 samples.

Results

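The SR splicing factors are proteins that bind exons in pre-mRNA and help the spliceosome choose splice sites. The 10 genes of the family followed here were Srsf1, Srsf2, Srsf3, Srsf4, Srsf5, Srsf6, Srsf7, Srsf9, Srsf10 and Srsf11. They were taken by gene name from the tables of all 24 libraries, 10 of 55414 gene identifiers. All 10 members passed the filter on low counts and were among the 16167 genes tested. The cells were 32D, a mouse myeloid line from bone marrow that needs IL-3, grown in RPMI1640 with 10% serum and mouse IL-3 at 10 ng/ml. The 3 lines sampled were wild type (WT) and a pair labelled Nat10+/-, KO1 and KO2, whose genotype is given as Nat10 deficiency; each is taken here as 1 clone. How the allele was altered is not given in the sources used here. Cells of every line received actinomycin D at 0.05 µg/ml and were collected at 0, 3, 6 and 9 h, with 2 libraries of polyadenylated RNA in each of the 12 groups. Nat10 is the enzyme that acetylates cytidine in RNA (ac4C), and the series asked how it bears on the lifetime of mRNAs.

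Each SR protein has 1 or 2 RNA recognition motifs at its front and a tail rich in serine and arginine (the RS domain), which is phosphorylated by the SRPK and CLK kinases. Many SR proteins control their own mRNA: when the protein is abundant, splicing includes a "poison" exon with a premature stop codon, and the resulting transcript is degraded by nonsense-mediated decay (NMD). In blood cells SRSF2 is best known as a recurrent target of mutation in myeloid neoplasms. Actinomycin D binds DNA and blocks RNA polymerases, with the synthesis of ribosomal RNA the most sensitive to low doses. A count table after the drug therefore follows the mRNAs that remain, together with any still being made. Counts scaled to library size (CPM) are shares of a library, so a transcript that is lost more slowly than the average gains CPM.

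Depth lay between 15361601 and 17338939 gene counts per library. The headers of both libraries of a group named the same alignment file in 12 of 12 groups, while their counts differed by more than sampling noise (chi-square per degree of freedom 1.44 to 2.27), so both were kept. The labels call them biological replicates without saying whether cultures were grown and treated apart, so each p-value reflects only how far the libraries of a group lie from each other, possibly for technical reasons. At 0 h the WT libraries held 111 and 113 CPM of Nat10, those of KO1 97.6 and 108, and those of KO2 99.1 and 95.1. With the clones pooled it was lower than in WT (log2 −0.16, SE 0.04, edgeR adjusted p = 8.01e-04). At 0 h KO1 alone gave −0.12 (adjusted p = 0.0486) and KO2 −0.21 (adjusted p = 2.91e-04), and at 3 h it was called in neither (−0.06, adjusted p = 0.397, and −0.08, adjusted p = 0.223). The part of the gene that was edited is not known, so the mRNA is a weak check of the labels. The cell type label reads lymphoblastocytes. In WT at 0 h 2 of 10 lymphoid markers reached 1 CPM, Nkg7 (15.5) and Cd79b (7.42), the list summed to 22.4 to 24.1 CPM, and Cd3e, Cd3d, Il7r and Rag1 had 0 counts. Of 14 myeloid progenitor markers 9 reached 1 CPM and the list summed to 1222 to 1260 CPM: Il3ra (64.4), Csf2rb (447), Gata2 (237.8), Spi1 (96.1), Prtn3 (31.3), Itgam (20.5), Ctsg (14.4) and Cebpa (8.87) were among them, while Kit, Cd34, Mpo and Elane held 0.118 CPM or less. Spike-in RNA, said to have been added in equal amount, made up 7.19 to 14.0 CPM in WT groups, 240.4 to 347.7 in KO1 and 332.9 to 834.1 in KO2. Levels are CPM scaled by TMM, given per library or as mean ± SD of 2 libraries, and adjusted p-values are those of edgeR's quasi-likelihood test over all genes unless another tool is named. A gene was called higher or lower at an adjusted p under 0.05.

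Positions are those of GRCm39, as in the files. Srsf1 (ENSMUSG00000018379, chr11:87938199-87944581, plus strand) and Srsf2 (ENSMUSG00000034120, chr11:116740727-116743920, minus strand) share a chromosome. So do Srsf3 (ENSMUSG00000071172, chr17:29251602-29262347, plus strand) and Srsf7 (ENSMUSG00000024097, chr17:80507509-80514736, minus strand), and Srsf4 (ENSMUSG00000028911, chr4:131600928-131629017) and Srsf10 (ENSMUSG00000028676, chr4:135583058-135597219), both on the plus strand. Srsf5 (ENSMUSG00000021134) is at chr12:80992278-80997281, Srsf6 (ENSMUSG00000016921) at chr2:162773448-162779041 and Srsf9 (ENSMUSG00000029538) at chr5:115465236-115471139, all on the plus strand, and Srsf11 (ENSMUSG00000055436) is at chr3:157716110-157742276 on the minus strand. Counting did not use strand, so reads of an exon shared with an antisense gene cannot be assigned. This touches 43% of the exon length of Srsf4, which is shared with Gm12992, and 15.6% and 9.74% of that of Srsf2, shared with Mettl23 and Mfsd11. Over all libraries Gm12992 was given 1850 counts and Srsf4 10520.

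The family is named for the serine and arginine repeats, and the stretch of 25 codons richest in them is printed for 4 members on which the results turn. They are coding sequence of the GENCODE M21 principal transcripts, 5′ to 3′, with serine and arginine codons in capitals. Coding bases 349 to 423 are shown for Srsf2, 331 to 405 for Srsf3, 580 to 654 for Srsf6 and 556 to 630 for Srsf9.
Srsf2: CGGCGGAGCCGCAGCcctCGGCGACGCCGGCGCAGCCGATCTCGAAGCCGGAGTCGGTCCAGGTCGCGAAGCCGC
Srsf3: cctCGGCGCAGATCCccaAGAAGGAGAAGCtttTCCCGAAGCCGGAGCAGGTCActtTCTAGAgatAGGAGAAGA
Srsf6: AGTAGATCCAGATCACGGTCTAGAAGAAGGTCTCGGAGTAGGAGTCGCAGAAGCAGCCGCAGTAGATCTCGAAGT
Srsf9: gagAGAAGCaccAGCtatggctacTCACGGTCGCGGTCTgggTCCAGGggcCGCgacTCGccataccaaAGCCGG
All 25 codons of the Srsf6 stretch encode serine or arginine, against 14 of 25 in Srsf9. Over the whole coding sequence serine and arginine codons made up 22.1% in Srsf9 and up to 45.7% in Srsf2, against a median of 13.5% over 12199 tested genes with a coding transcript. The members differed in the codons they use: codons ending in C were 50.7% in Srsf2 and 15.9% in Srsf3, around a median of 29.9% over those genes.

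Annotated poison transcripts were common among the members. GENCODE M21 lists an NMD transcript for 9 of 10 members, all but Srsf10, against 28.8% of the 12199 genes, and a retained-intron transcript for 8 of 10 against 58.2%. Counts here are per gene, so a change in a member cannot be divided between its productive and its NMD transcripts. The members' 3′ UTRs ran from 361 nt in Srsf9 to 4149 nt in Srsf1, and the AU-rich pentamer ATTTA was present in 8 of 10. Srsf4 and Srsf9 had none, Srsf10 had 11 matches (4.04 per kb) and Srsf6 had 8 (3.38 per kb), around a median of 1.15 per kb over all genes.

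Promoter sequence is shown because Srsf2 and Srsf3, whose time courses differed, share promoter letters. In RefSeq windows of 300 bases (250 before to 50 after the start, GRCm38.p6), all 10 members matched, with 13 windows. On either strand CCAAT was found in 4 members, Srsf1, Srsf2, Srsf3 and Srsf10 (4 of 13 windows, against 37.4% of all 32851 windows). TATAAA was found in 2, Srsf2 and Srsf3 (2 of 13 windows, against 13.6%). Both counts of windows are near the shares over all windows. CGGAAG was found in 5, Srsf4, Srsf5, Srsf7, Srsf9 and Srsf11 (7 of 13 windows, against 16.9%), and CACGTG in 0 (against 7.15%). Srsf4 and Srsf11 each entered with 2 windows, with CGGAAG matches at −210 and −212 and at −45 and −42. Such windows may hold the same site and are not independent. The 150 bases before the start are printed for the pair with both CCAAT and TATAAA, and for Srsf5, with CGGAAG on each strand; capitals mark those letters or their reverse complements. The windows are chr11:116853095-116853244 on the minus strand for Srsf2, chr17:29032510-29032659 on the plus strand for Srsf3 and chr12:80945349-80945498 on the plus strand for Srsf5.
Srsf2: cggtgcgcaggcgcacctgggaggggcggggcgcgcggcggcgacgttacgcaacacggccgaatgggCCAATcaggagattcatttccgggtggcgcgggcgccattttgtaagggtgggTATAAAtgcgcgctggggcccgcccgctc
Srsf3: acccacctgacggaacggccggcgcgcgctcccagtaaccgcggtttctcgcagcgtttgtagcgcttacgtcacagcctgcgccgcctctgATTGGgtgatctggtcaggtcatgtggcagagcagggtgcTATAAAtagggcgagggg
Srsf5: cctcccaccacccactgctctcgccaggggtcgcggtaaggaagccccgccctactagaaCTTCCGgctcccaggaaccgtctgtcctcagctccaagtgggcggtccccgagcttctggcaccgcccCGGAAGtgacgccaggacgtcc
A match is a description of the letters and not a binding site.

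Before the drug, Srsf5 was the most abundant member per exon length. In WT it stood at 111 ± 2.75 CPM per kb of exon, followed by Srsf2 at 93.0 ± 0.94, Srsf1 at 71.1 ± 1.64, Srsf7 at 64.0 ± 1.63 and Srsf6 at 54.3 ± 0.82 (SD, n = 2). Srsf3 (47.5 ± 0.34) and Srsf9 (46.2 ± 3.11) were not apart, since their libraries overlapped. Srsf11 (32.9 ± 0.62), Srsf10 (31.4 ± 0.031) and Srsf4 (9.26 ± 0.12) were the lowest. The length is the union of all annotated exons, retained introns included. By this measure Srsf4 was last at every time and in every line. The length also holds exon shared with antisense genes, 43% of it in Srsf4 and 15.6% and 9.74% in Srsf2. Reads there cannot be assigned, so the levels of Srsf4 and Srsf2 per kb may be understated. The order without the shared exon was not examined.

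**Figure D1:**
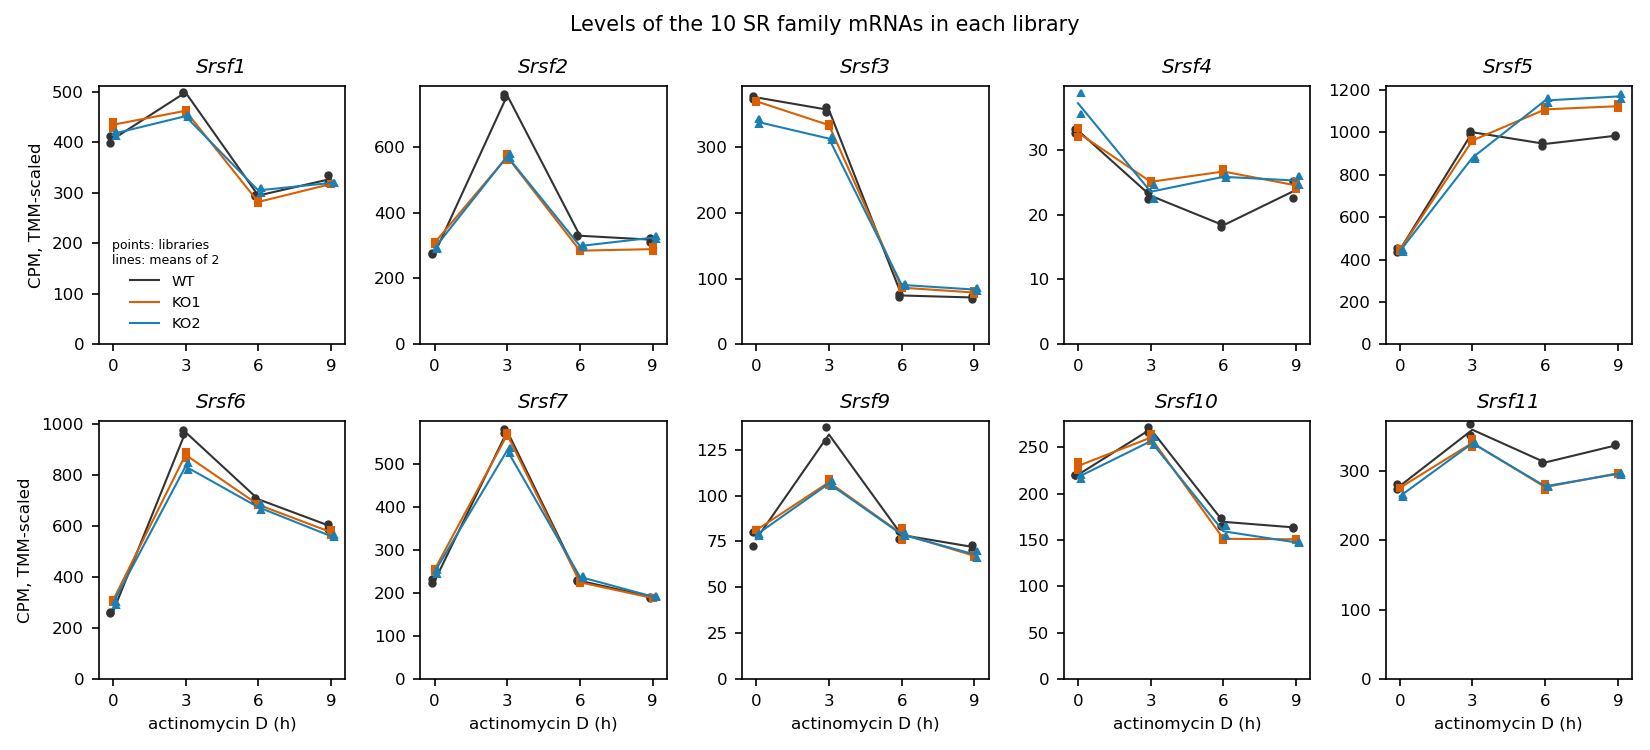
CPM on the TMM scale (vertical axis, from 0, a separate scale for each gene) against hours of actinomycin D, 1 panel per member. Points are single libraries and lines join means of 2 for WT, KO1 and KO2. Srsf3 drops after 3 h, Srsf2, Srsf7 and Srsf9 peak at 3 h, and Srsf5 and Srsf6 stay above their starting level.

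Within 3 h of actinomycin D the family took up a larger share of the WT libraries. The summed level rose from 2581 and 2613 CPM at 0 h to 4925 and 4953 at 3 h, and came back to 3156 and 3153 at 6 h and 3060 and 3111 at 9 h. At 3 h 8 members were higher and 2 lower than at 0 h, where 72.2% of all genes tested were called, 38.6% higher and 33.5% lower. The median of the 10 was 0.59 on the log2 scale, against 0.13 over all genes. From 3 to 6 h all 10 members fell in WT, where 54.5% of all genes were called, 27.6% higher and 26.9% lower; this window and the next were added after the values had been seen. The smallest of these falls, that of Srsf5 (−0.08, SE 0.02), was −0.0049 (adjusted p = 0.846) with upper-quartile scaling. From 6 to 9 h 4 members were higher and 3 lower, beside 38.9% of all genes called (18.5% higher, 20.4% lower). From 3 to 9 h 0 were higher and 8 lower, beside 65.9% of all genes (34.2% higher, 31.6% lower). From 6 to 9 h the calls for Srsf5 (0.06) and Srsf9 (−0.13) were lost without WT_6h replicate 1 or WT_9h replicate 1, and that for Srsf5 also without WT_9h replicate 2 (adjusted p 0.0534 to 0.153 for Srsf5 and 0.229 to 0.297 for Srsf9). The call for Srsf11 from 3 to 9 h (−0.09) was lost without WT_3h replicate 2 (adjusted p = 0.0785).

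Srsf3, the smallest SR protein and an adaptor for mRNA export, had the steepest loss. WT libraries held 377 and 374 CPM at 0 h, 360.2 and 353 at 3 h, 72.0 and 76.4 at 6 h and 69.2 and 73.0 at 9 h. The early libraries and the late libraries did not overlap, and nearly the whole drop fell between 3 and 6 h. It fell 5.28-fold from 0 to 9 h (log2 −2.40, SE 0.04, adjusted p = 4.25e-83), of which −2.26 (SE 0.04) came between 3 and 6 h. The change from 6 to 9 h was −0.06 (SE 0.05, adjusted p = 0.29) and did not pass. The small fall by 3 h (−0.08, SE 0.03, adjusted p = 0.013) was not steady: without WT_0h replicate 1 its adjusted p was 0.0931, without WT_3h replicate 2 it was 0.181, and upper-quartile scaling turned it to 0.18. That scaling moved the median of all genes by 0.25 from 0 to 3 h and by 0.33 from 0 to 9 h in WT, so small changes over time depend on the scale.

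Srsf2, Srsf7 and Srsf9 rose to a peak at 3 h and lost it by 6 h. Srsf2, an SR protein that stays in the nucleus, went from 273 and 277 CPM at 0 h to 752 and 760 at 3 h, and then to 328 and 331 at 6 h and 311 and 324 at 9 h. No library of another time reached the pair at 3 h. The rise was 2.75-fold (log2 1.46, SE 0.02, adjusted p = 1.65e-76) and the change from 3 to 6 h −1.20 (SE 0.02). Srsf7, which like Srsf3 takes part in mRNA export, went from 223 and 231 CPM to 571 and 580.1 and back to 229.5 and 227, a 2.53-fold rise (log2 1.34, SE 0.03, adjusted p = 1.09e-70). Srsf9 had the same shape on a smaller scale, from 79.9 and 72.7 CPM to 137 and 129.5 and back to 80.7 and 76.4 (log2 0.80, SE 0.05, adjusted p = 1.67e-30). Between 0 and 9 h the 3 genes ended apart: Srsf2 was higher (log2 0.21), Srsf7 lower (−0.26) and Srsf9 not called (−0.09, SE 0.05, adjusted p = 0.108). Upper-quartile scaling turned the last 2 to 0.07 and 0.24.

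As shares of the WT libraries, Srsf5 and Srsf6 rose early and stayed high. Srsf5, an SR protein known to respond quickly to growth signals, went from 437 and 452 CPM to 1009 and 993 at 3 h, 938 and 954 at 6 h and 986 and 986 at 9 h. Its lowest treated library stood above both libraries at 0 h, and the change from 0 to 9 h was 2.22-fold (log2 1.15, SE 0.02, adjusted p = 4.12e-76). Srsf6 had the largest early rise of the family, 3.70-fold, from 264 and 259 CPM to 958 and 975 (log2 1.89, SE 0.02, adjusted p = 1.40e-88). It then declined to 709 and 698 at 6 h and 588 and 607 at 9 h, still 2.29-fold above 0 h (log2 1.19, SE 0.02, adjusted p = 6.73e-70).

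By 3 h the other 4 members had smaller changes than Srsf2, Srsf5, Srsf6, Srsf7 and Srsf9. Srsf1, the founding SR protein, and Srsf10, which represses splicing when it is dephosphorylated, rose slightly by 3 h (log2 0.30, SE 0.02, and 0.29, SE 0.03). From 3 to 6 h they changed by −0.76 (SE 0.03) and −0.67 (SE 0.03), and they were below their start at 9 h (−0.31, SE 0.03, and −0.43, SE 0.03). The value for Srsf1 from 0 to 9 h was 0.02 (adjusted p = 0.518) with upper-quartile scaling. Srsf11 rose by 0.37 (SE 0.03) by 3 h and was 0.28 (SE 0.03) above its start at 9 h. Srsf4 fell by 3 h, from 32.7 and 33.3 CPM to 22.35 and 23.45 (log2 −0.52, SE 0.09, adjusted p = 6.78e-08), and reached 18.1 and 18.6 at 6 h. Reads in the exon that Srsf4 shares with the antisense gene Gm12992 cannot be assigned. Over 0 to 9 h in WT 4 members were called higher and 5 lower, beside 81.7% of all genes called (43.2% higher, 38.5% lower).

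The make-up of the family changed as well; shares within the family do not depend on the scaling. Srsf5 made up 19.6% and 20.1% of the summed CPM per kb in the WT libraries at 0 h and 35.0% and 34.4% at 9 h. Srsf6 went from 9.68% ± 0.20 to 17.45% ± 0.18. Srsf3 went the other way, from 8.55% and 8.39% to 1.24% and 1.29%, and Srsf1 from 12.5% and 12.8% to 7.94% and 8.17%. Srsf2 reached 21.8% ± 0.14 at 3 h and was at 15.1% ± 0.24 at 9 h. By 9 h Srsf5 stood at 39.1% ± 0.54 in KO1 and 39.5% ± 0.56 in KO2, above both WT libraries. No test was run on these shares.

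**Figure D2:**
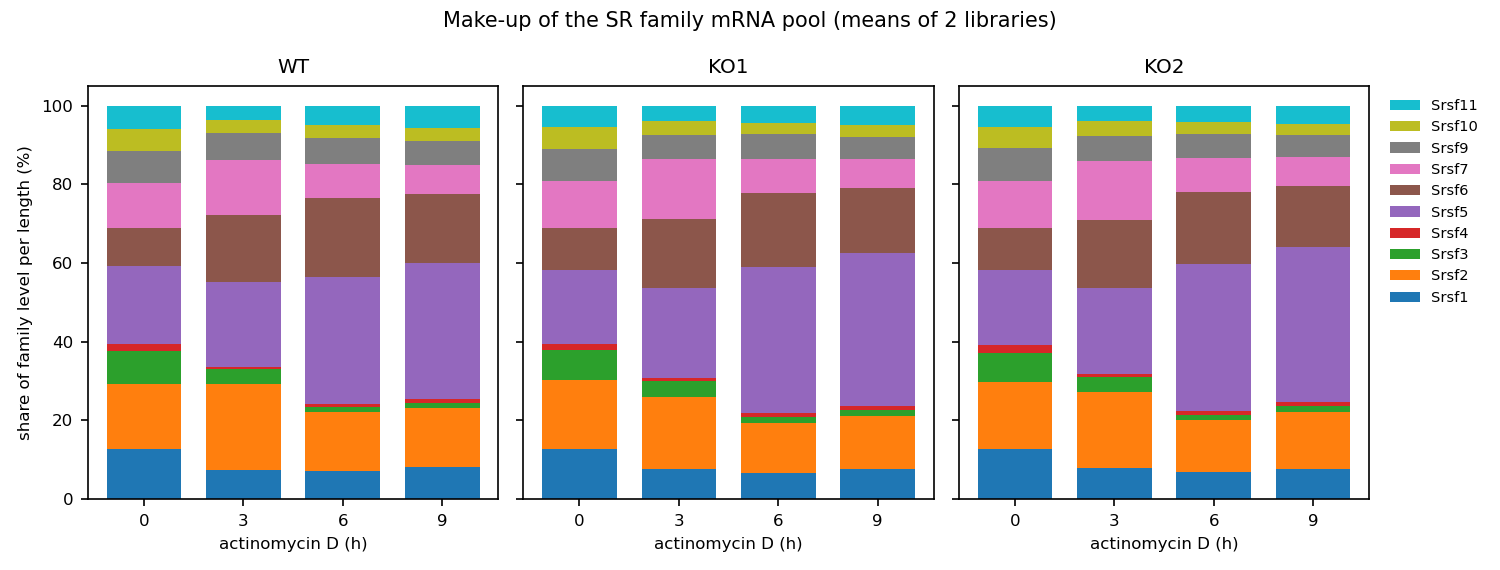
Share of each member in the summed CPM per kb of the 10 genes (vertical axis, %, from 0) at 0, 3, 6 and 9 h of actinomycin D in WT, KO1 and KO2. Each bar is the mean of 2 libraries; the Srsf5 band widens from 19.9% to 34.7% in WT while the Srsf3 band narrows from 8.47% to 1.26%.

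In KO1 and in KO2 8 members were higher and 2 lower at 3 h than at 0 h, beside 71.3% of all genes called in KO1 (37.9% higher, 33.4% lower) and 70.9% in KO2 (37.6% higher, 33.3% lower). From 3 to 6 h 1 member was higher and 8 lower in each clone (54.2% of all genes called in KO1, 25.5% higher and 28.7% lower, and 56.3% in KO2, 26.9% higher and 29.4% lower), the higher one being Srsf5, whose change was −0.09 in KO1 and −0.08 in KO2 on the spike-in scale. The counts from 3 to 9 h were again 1 and 8 in each (65.2% of all genes in KO1, 32.1% higher and 33.0% lower, and 66.2% in KO2, 32.5% higher and 33.7% lower). From 6 to 9 h 2 members were higher and 4 lower in KO1 (39.7%; 19.8% higher, 19.9% lower), and 3 and 5 in KO2 (41.5%; 20% higher, 21.5% lower). Some of these late calls were lost without 1 library: in KO1 Srsf3 without KO1_6h replicate 1 or KO1_9h replicate 2 (adjusted p 0.0779 to 0.240) and Srsf11 without KO1_6h replicate 2 (0.0702). In KO2 they were Srsf1 without KO2_6h replicate 2 or either library of KO2_9h (0.0853 to 0.338), Srsf3 without KO2_6h replicate 2 or KO2_9h replicate 1 (0.167 to 0.182) and Srsf10 without KO2_6h replicate 1 (0.223). By 9 h 3 members were higher and 7 lower in KO1 (80.5% of all genes called; 42.2% higher, 38.3% lower), and 4 higher and 6 lower in KO2 (80.8%; 42.0% higher, 38.8% lower). The early fall of Srsf3 in the clones (−0.15 in KO1, −0.11 in KO2) turned to 0.10 and 0.13 with upper-quartile scaling. Srsf3 ended at 81.4 and 75.9 CPM in KO1 and 81.4 and 85.0 in KO2, falls of 4.70-fold (log2 −2.23, SE 0.03) and 4.07-fold (log2 −2.03, SE 0.03). Srsf2 at 9 h was slightly below its start in KO1 (log2 −0.09, SE 0.03, adjusted p = 0.00119), a value that upper-quartile scaling turned to 0.21 and that had an adjusted p of 0.0841 with RLE scaling and 0.0535 without KO1_9h replicate 1.

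At 0 h the clones differed from WT by small amounts. With the clones pooled, 4 members were higher and 1 lower in the clones, beside 31.6% of all genes called (16.7% higher, 14.8% lower), and the largest difference was 1.15-fold. WT libraries held 264 and 259 CPM of Srsf6 against 302 and 309.5 in KO1 and 300 and 290 in KO2 (both clones log2 0.20, SE 0.02, adjusted p = 1.43e-12). Srsf7 followed (0.14, SE 0.02, adjusted p = 1.01e-06), then Srsf2 (0.12, SE 0.02, adjusted p = 7.23e-06) and Srsf1 (0.07, SE 0.02, adjusted p = 0.0087). No WT library reached a clone library in Srsf6, Srsf7 or Srsf2. Srsf3 was lower (−0.09, SE 0.02, adjusted p = 0.00302), which KO2 carried: 342 and 336 CPM there against 369 and 370 in KO1 and 377 and 374 in WT. Without WT_0h replicate 1 the calls for Srsf1 (adjusted p = 0.255) and Srsf3 (adjusted p = 0.0678) were lost and 3 members remained called; upper-quartile scaling also ended the call for Srsf1 (0.03, adjusted p = 0.256). Each clone alone gave 4 higher and 0 lower in KO1 (27.3% of all genes called; 15% higher, 12.3% lower) and 3 higher and 2 lower in KO2 (29.4%; 15.1% higher, 14.3% lower), and both comparisons use the same WT libraries. In KO1 Srsf1 had an adjusted p of 0.0508 without WT_0h replicate 1. In KO2 the call for Srsf2 (0.08) was lost without KO2_0h replicate 2 (adjusted p = 0.0622) or WT_0h replicate 1 (0.101), or with upper-quartile scaling (0.177), and that for Srsf11 (−0.08) without KO2_0h replicate 1 (0.0575), KO2_0h replicate 2 (0.150) or WT_0h replicate 2 (0.263).

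The clones were also compared with each other, and summed levels of cell-type markers differed between the lines. KO2 had 0 members higher and 2 lower than KO1 at 0 h, beside 16.8% of all genes called (7.29% higher, 9.55% lower). The count of members called is near that share. The 2 were Srsf3 (log2 −0.13, SE 0.03, adjusted p = 3.60e-04) and Srsf2 (−0.08, SE 0.03, adjusted p = 0.0311). The call for Srsf2 was lost without KO1_0h replicate 2 (adjusted p = 0.206), without KO2_0h replicate 1 (0.119) and without KO2_0h replicate 2 (0.0771). The summed level of 10 macrophage markers was 146 to 149 CPM in WT, 72.2 to 78.0 in KO1 and 49.8 to 51.8 in KO2 at 0 h, with 4 of the 10 (Mrc1, C1qa, C1qb and Marco) at 0 counts in all 3 lines. The 10 stromal markers summed to 11.6 to 14.8 CPM in WT, 1.33 to 2.19 in KO1 and 1.37 to 1.38 in KO2, with Bgn, Fn1, Col3a1 and 5 more at 0 in both clones. The 11 erythroid and megakaryocyte markers, with Itga2b the highest, summed to 917.5 to 919 CPM, 1073 to 1097 and 1277 to 1287 in the same order, with Gp1bb at 0. Myeloid progenitor markers, 14 in the list, summed to 1222 to 1260 CPM in WT, 1117 to 1121 in KO1 and 1116 to 1138 in KO2 at 0 h. The 10 lymphoid markers summed to 8.02 to 12.6 CPM in KO1 and 8.97 to 10.6 in KO2, below the 22.4 to 24.1 of WT, with Cd3e, Il7r and Rag1 at 0 in all 3 lines. At 3 h the lymphoid sum was 62.5 to 63.6 CPM in WT, 31.0 to 31.1 in KO1 and 30.0 to 30.3 in KO2, and the stromal sum 6.41 to 6.63, 3.24 to 4.09 and 3.57 to 3.70. The erythroid and megakaryocyte sum at 3 h was 1554 to 1583 CPM in WT, 1410 to 1419 in KO1 and 1818 to 1824 in KO2. At 3 h the macrophage sum was 310.0 to 313 CPM in WT, 147 to 151 in KO1 and 107.5 to 110.3 in KO2. In bulk RNA fewer cells of a type and less RNA per cell cannot be told apart, and the part of these markers in the differences of the SR genes, at 0 h and later, was not tested.

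At 3 h most members were lower in the clones than in WT. For Srsf1, Srsf2 and Srsf6, higher at 0 h with the clones pooled, the direction had turned. In KO2 Srsf3 and Srsf11 were lower at 0 h already (−0.15 and −0.08). In KO1 0 members were higher and 7 lower (36.8% of all genes called; 20.1% higher, 16.7% lower), and in KO2 0 were higher and 8 lower (38.7%; 21.1% higher, 17.6% lower). Srsf2 showed the largest gap: WT libraries held 752 and 760 CPM, KO1 560 and 579 and KO2 564.5 and 577. Every clone library was below both WT libraries, by 1.33-fold in KO1 (log2 −0.41, SE 0.02, adjusted p = 1.54e-30) and 1.32-fold in KO2 (−0.40, SE 0.02, adjusted p = 2.56e-30). Srsf9 came next, with 137 and 129.5 CPM in WT, 109 and 106 in KO1 and 107.7 and 105.4 in KO2 (−0.31, SE 0.05, and −0.32, SE 0.05). Srsf6 was lower by −0.14 (SE 0.02) and −0.22 (SE 0.02), and Srsf5 by −0.06 (SE 0.02) and −0.18 (SE 0.02). Srsf4 and Srsf10 were called in neither clone, and Srsf7 in KO2 (−0.12, SE 0.02) but not in KO1 (−0.02, SE 0.02). Some of the smaller calls in KO1 rested on single libraries: Srsf5 had an adjusted p of 0.0900 without KO1_3h replicate 1 and 0.147 without WT_3h replicate 1, and Srsf3 (−0.10) had 0.0808 without WT_3h replicate 1. Srsf11 (−0.08 in both clones) lost its call in KO1 without KO1_3h replicate 1 (adjusted p = 0.23) or WT_3h replicate 2 (0.332), and in KO2 without KO2_3h replicate 2 (0.0652) or WT_3h replicate 2 (0.306).

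For several members the rise over the first 3 h was smaller in the clones, and that difference was tested as an interaction. Srsf2 rose 2.75-fold in WT, 1.85-fold in KO1 and 1.96-fold in KO2, a difference of −0.57 (SE 0.04, adjusted p = 1.30e-26) for KO1 and −0.49 (SE 0.04, adjusted p = 2.68e-22) for KO2 on the log2 scale. Srsf9 rose 1.75-fold, 1.32-fold and 1.35-fold, differences of −0.40 (SE 0.07, adjusted p = 7.92e-07) and −0.37 (SE 0.07, adjusted p = 8.07e-06). Srsf6 rose 3.70-fold, 2.87-fold and 2.82-fold, differences of −0.37 (SE 0.03) and −0.39 (SE 0.03). Srsf7 and Srsf1 also rose less in both clones, by −0.18 (SE 0.04) and −0.25 (SE 0.04) and by −0.21 (SE 0.03) and −0.18 (SE 0.03). In all, 0 members had a larger early change and 5 a smaller one in KO1 (25.8% of all genes called; 13.1% higher, 12.7% lower), and 0 and 6 in KO2 (24.7%; 13.3% higher, 11.4% lower), the sixth being Srsf5 (−0.16, SE 0.03). None of these 11 calls was lost when 1 library was left out, or with RLE or upper-quartile scaling, DESeq2, no filter or only the groups compared. The interaction for Srsf3 was not called in either clone (−0.07, SE 0.04, and −0.04, SE 0.04), nor was that for Srsf4, Srsf10 or Srsf11. The WT libraries and the 0 h libraries of a line enter several of these differences, so the clones are not independent of each other here.

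**Figure D3:**
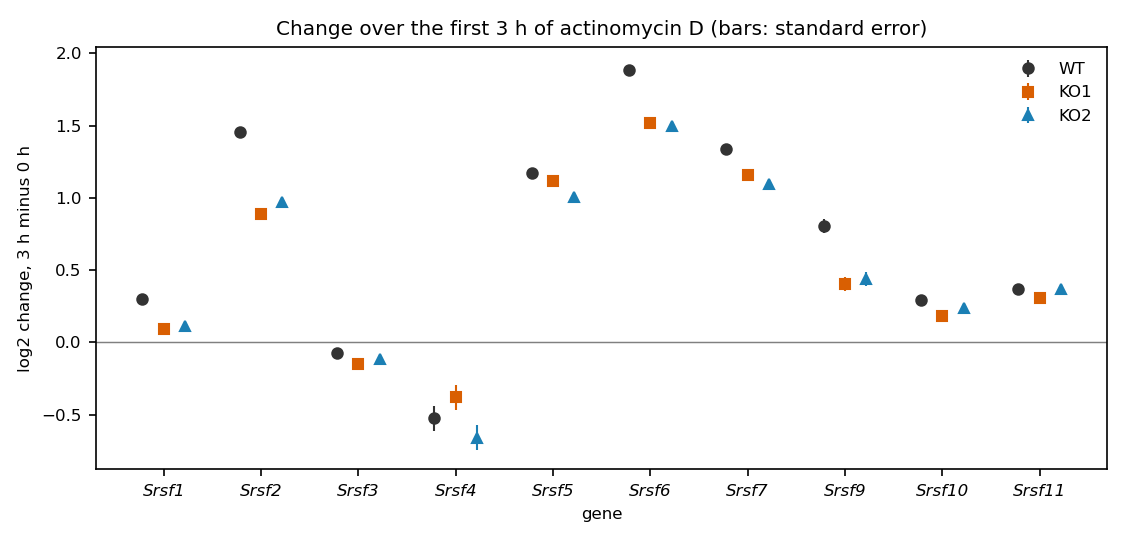
Log2 change from 0 to 3 h of actinomycin D (vertical axis) for each member in WT, KO1 and KO2; bars are standard errors of the edgeR fit. The WT point lies above both clones for every member but Srsf4, though barely above KO2 for Srsf11 (0.370 against 0.368). The widest gap is at Srsf2 (1.46 against 0.89 and 0.97). The interaction was called in both clones for Srsf1, Srsf2, Srsf6, Srsf7 and Srsf9.

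Later in the course Srsf3 and Srsf5 stood higher in the clones than in WT. At 6 h 3 members were higher and 3 lower in KO1 (35.7% of all genes called; 18.4% higher, 17.4% lower), and 3 higher and 4 lower in KO2 (34.3%; 17.5% higher, 16.8% lower). Srsf5 held 938 and 954 CPM in WT, 1099 and 1118 in KO1 and 1161 and 1141 in KO2 (log2 0.23, SE 0.02, and 0.28, SE 0.02). Srsf3 held 72.0 and 76.4 CPM in WT, 87.1 and 85.1 in KO1 and 88.2 and 92.4 in KO2 (0.21, SE 0.04, and 0.28, SE 0.04). Every clone library was above both WT libraries in these genes. Srsf4 had the largest gap at that time, 18.1 and 18.6 CPM in WT against 26.2 and 27.1 in KO1 and 26.05 and 25.6 in KO2 (0.54, SE 0.09, and 0.49, SE 0.09), and at 9 h it was not called (0.04 and 0.08). Lower in both clones at 6 h were Srsf2 (−0.21 and −0.14), Srsf11 (−0.17 and −0.17) and Srsf10 (−0.16 and −0.09). The value for Srsf10 in KO2 was not called with RLE scaling (adjusted p = 0.0786), without KO2_6h replicate 2 (0.543) or without WT_6h replicate 1 (0.458). Srsf6 was lower in KO2 (−0.06), a call lost without KO2_6h replicate 2 (adjusted p = 0.253) or WT_6h replicate 1 (0.147).

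At 9 h 2 members, again Srsf5 and Srsf3, were higher in each clone. Srsf5 held 986 and 986 CPM in WT, 1133 and 1116 in KO1 and 1182 and 1158 in KO2 (log2 0.19, SE 0.02, adjusted p = 8.33e-16, and 0.25, SE 0.02, adjusted p = 1.25e-22). Srsf3 was higher by 0.15 (SE 0.04, adjusted p = 0.00536) in KO1 and 0.23 (SE 0.04, adjusted p = 6.82e-06) in KO2. In KO1 its adjusted p was 0.193 without KO1_9h replicate 1, 0.125 without WT_9h replicate 1 and 0.107 with upper-quartile scaling. In KO1 4 members were lower and in KO2 3 (of all genes 34.4% were called in KO1, 19.3% higher and 15.1% lower, and 35.2% in KO2, 18.7% higher and 16.5% lower). Srsf11 (−0.19 in both) and Srsf10 (−0.12 and −0.15) were lower in each, and Srsf6 was lower by −0.06 in KO1 and −0.10 in KO2. The call for Srsf6 in KO1 was lost without KO1_9h replicate 1 (adjusted p = 0.462) or WT_9h replicate 2 (0.456). Srsf2 was lower in KO1 alone (−0.14, SE 0.03, against 0.03, SE 0.03, in KO2), and the difference between the clones was not tested at this time.

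**Figure D4:**
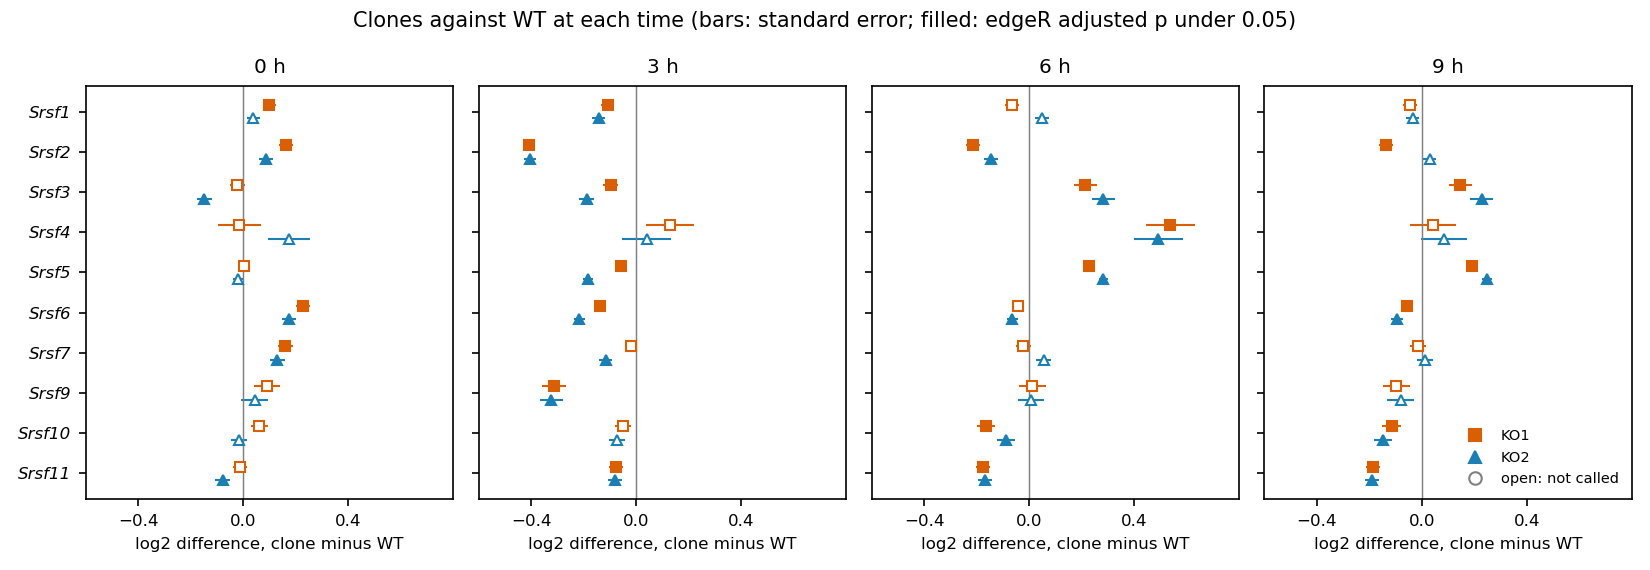
Log2 difference of KO1 and KO2 from WT (horizontal axis) for each member at 0, 3, 6 and 9 h, with standard errors; filled symbols had an edgeR adjusted p under 0.05. At 3 h 7 and 8 members lie below 0 with filled symbols, and at 6 and 9 h Srsf3 and Srsf5 lie above 0 in both clones.

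From 3 to 9 h several members fell less or rose more in the clones than in WT on the TMM scale. In KO1 5 members had a higher and 1 a lower change than in WT (21.1% of all genes called; 11% higher, 10.1% lower), and in KO2 7 and 1 (20.8%; 9.99% higher, 10.8% lower). Srsf5 changed by −0.02 (SE 0.02, adjusted p = 0.293) in WT (0.05 with upper-quartile scaling) and rose by 0.22 in KO1 and 0.41 in KO2 (0.46 and −0.04 on the spike-in scale), differences of 0.25 (SE 0.03, adjusted p = 3.79e-13) and 0.43 (SE 0.03, adjusted p = 1.41e-26). For Srsf2 the differences were 0.27 (SE 0.03) and 0.43 (SE 0.03), and for Srsf3 0.24 (SE 0.05, adjusted p = 1.69e-04) and 0.42 (SE 0.05, adjusted p = 2.27e-10). On the spike-in scale Srsf2 changed by −0.74 in KO1 and −1.27 in KO2 (−0.98 and −0.82 with TMM). Srsf3 changed by −1.84 and −2.36 there (−2.08 and −1.91 with TMM). That scale was not run for WT, so the differences from WT were not tested on it. With TMM, Srsf2, Srsf3 and Srsf5 were called in both clones in every fit with 1 library left out. The other calls were smaller and several rested on single libraries. The member with a lower change, Srsf11, lost its call in both clones with DESeq2 (adjusted p 0.153 in KO1 and 0.203 in KO2), RLE scaling (0.147 and 0.203), no filter (0.0800 and 0.0709) and only the groups compared (0.0712 and 0.0882). Without KO1_3h replicate 2, 3 members were called in KO1, and without KO2_3h replicate 2, 5 were called in KO2. The 3 h libraries enter this comparison and the one from 0 to 3 h with opposite signs.

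Spike-in counts gave another scale within each clone. On it most members in KO2 were below their start at 3 and 9 h, as were most of all genes called. The WT libraries held 120 to 257 spike-in counts each, under the 1000 required, so this was not run for WT. The spike-in share in WT rose with time, with means of 7.19 CPM at 0 h, 9.59 at 3 h, 12.6 at 6 h and 14.0 at 9 h. Rises and falls over time in WT are therefore given only relative to the other genes of a library, as CPM on the TMM scale. Their size on a spike-in scale was not tested. In KO2 the spike-in scale moved the median of all genes by −0.67 from 0 to 3 h and by −1.15 from 0 to 9 h, and in KO1 by −0.17 and 0.03. Means of the KO1 spike-in share were 240.4 CPM at 0 h, 261.4 at 3 h, 347.7 at 6 h and 257.9 at 9 h. From 6 to 9 h the scale moved the KO1 median by 0.53, and 96.0% of the genes called were higher. Spike-in values in KO1 therefore depend on a share that fell late in the course, for reasons not tested. On the spike-in scale 6 members were higher and 3 lower at 3 h in KO1, and 4 higher and 6 lower in KO2. Of all genes tested on that scale, 11297 of 14887 were called at 3 h in KO1, 44.8% of these higher. In KO2 they were 11135 of 15104, 20.4% of these higher. Srsf6 rose in both (log2 1.36, SE 0.03, and 0.82, SE 0.05), as did Srsf5 (0.95, SE 0.03, and 0.33, SE 0.05), Srsf7 (0.998, SE 0.03, and 0.42, SE 0.06) and Srsf2 (0.72, SE 0.03, and 0.29, SE 0.05). By 9 h Srsf5 was higher in both (1.41, SE 0.03, and 0.29, SE 0.05), and in KO2 the other 9 were lower, Srsf6 included (−0.21, SE 0.05, against 0.99, SE 0.03, in KO1). At 9 h 12739 of 15104 genes were called in KO2, 20.55% of these higher. In KO1 they were 12602 of 14887, 53.85% of these higher. Srsf3 fell by −2.16 (SE 0.04) in KO1 and −3.15 (SE 0.06) in KO2.

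Other genes of RNA splicing were counted from 5 lists. Of the 39 core spliceosome proteins 9 were higher and 26 lower at 9 h than at 0 h in WT (median log2 −0.42), of 27 hnRNP and PTB genes 3 and 22 (−0.85), and of 30 SR-like and SR-related factors 8 and 20 (−0.61), against a median of −0.17 for the 10 members and 0.13 over all genes. Of the 9 genes in the list of SR protein kinases and import receptor, called the kinases below, 6 were higher and 3 lower (0.46). Of the 16 tested genes of NMD and the exon junction complex 4 were higher and 11 lower (−0.41). These counts stand beside 81.7% of all genes called, 43.2% higher and 38.5% lower. With upper-quartile scaling they were 18 higher and 20 lower for the core spliceosome, 7 and 20 for the hnRNP and PTB genes, 10 and 18 for the SR-like factors, 6 and 3 for the kinases and 7 and 8 for the NMD genes. Clk3, a kinase of SR proteins, went from 40.8 ± 2.30 to 121 ± 1.33 CPM (SD, n = 2), and Srpk2, a kinase of the other family, from 89.0 ± 0.83 to 26.2 ± 0.40. Tra2a, a splicing activator with RS domains, rose 2.405-fold and Scaf8, an RS-domain protein that binds RNA polymerase II, fell 8.22-fold. Hnrnpd, which binds AU-rich mRNA, had the largest fall of its list (10.2-fold), as had Dhx15, a spliceosomal helicase (4.05-fold), and Nbas, which acts in NMD (16.65-fold, from 52.4 ± 2.27 to 3.14 ± 0.34 CPM). The largest rises of the remaining lists were those of Sf3b5 (2.04-fold), Smg8 (2.48-fold) and Hnrnph2 (1.46-fold).

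With the clones pooled at 0 h, higher and lower than in WT were 19 and 5 of 39 core spliceosome genes, 19 and 3 of 27 hnRNP and PTB genes, 14 and 3 of 30 SR-like factors, 12 and 1 of 16 NMD genes and 3 and 0 of 9 kinases, beside 31.6% of all genes called (16.7% higher, 14.8% lower). The count for the kinases is near that share. With upper-quartile scaling, in which 41.9% of the genes called were higher, 14 core spliceosome genes were higher and 5 lower, 16 hnRNP and PTB genes higher and 4 lower, 11 SR-like factors higher and 3 lower and 10 NMD genes higher and 1 lower, and of the kinases 3 higher and 0 lower. With TMM the medians of the lists ran from 0.05 for the SR-like factors to 0.18 for the NMD genes, against 0.07 for the members and 0.0003 over all genes. The count for the SR-like factors fell to 11 without WT_0h replicate 2. Clk1, the kinase that frees SR proteins from nuclear speckles, had a mean of 98.3 ± 6.41 CPM in WT against 125 ± 2.02 in KO1 and 128 ± 1.28 in KO2 (log2 0.37, SE 0.03, adjusted p = 3.93e-16). Hnrnpab (0.34), Nbas (0.35), Sf3a2 (0.27) and Rsrp1 (0.22) had the largest rises of the other lists, and Snrpe (−0.25), Rsrc1 (−0.15) and Ptbp3 (−0.15) had the largest falls of theirs. Between the clones, Snrpb (−0.25), Rbm8a (−0.20), Hnrnpa2b1 (−0.20) and Tra2a (−0.13) were lower in KO2 than in KO1, and Clk3 (0.18), Sf3b2 (0.13), Smg1 (0.12), Srrm2 (0.11) and Hnrnpl (0.10) were higher. For the early interaction, beside 25.8% of all genes called in KO1 (13.1% higher, 12.7% lower) and 24.7% in KO2 (13.3% higher, 11.4% lower), the lists were mixed: of 39 core spliceosome genes 10 had a larger and 4 a smaller early change in KO1, and 15 and 1 in KO2 (10 called without WT_3h replicate 2), and of 27 hnRNP and PTB genes 2 and 14 in KO1 and 4 and 9 in KO2.

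The members' patterns over the 12 groups fell into a few shapes. Pearson's r between group means of log2 CPM is given as a description, over 12 groups that share lines and times. Srsf7 and Srsf9 were alike (r = 0.96), as were Srsf2 and Srsf7 (0.94), Srsf1 and Srsf10 (0.96) and Srsf1 and Srsf3 (0.93). Srsf5 was closest to Srsf6 (0.85) and Srsf4 to Srsf3 (0.53), while Srsf4 and Srsf6 went opposite ways (−0.82). Among 8429 genes with at least 10 CPM and a range of 0.5 on the log2 scale, Srsf3 was most like H3f3b, Heatr3 and Sypl (r = 0.99 each). Srsf5 was most like Mrps24, Ndufa11 and Mknk2 (0.99 each), and Srsf6 like Rbmx (0.99), Nt5c3b (0.99) and Odc1 (0.98). Srsf7 was most like Nifk (0.99), Nop2 (0.98) and Eif4a1 (0.98), Srsf2 like Sar1a (0.97), Rbm12 (0.95) and Fam98a (0.94), and Srsf9 like Rbm12 (0.97), Srsf7 and Timm8a1 (0.96). Srsf10 was most like Ppat (0.99), Cd3eap (0.98) and Dctd (0.98), Srsf1 like Srsf10, Srek1 (0.96) and Ltv1 (0.96), Srsf11 like Akap8 (0.94), Chml (0.93) and Slc16a1 (0.93), and Srsf4 like Wdr48 (0.94), Nfya (0.94) and Gpr107 (0.94).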

How the data were processed

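Each library has a deposited table of whole-number counts of read pairs per gene. The authors made them with featureCounts 1.6.3 per the file headers, over exons by gene, without strand, keeping pairs with both ends aligned, on Ensembl 105 of GRCm39 with ERCC sequences. STAR and DESeq2 are also named in the submitters' processing notes, without versions. The kit was directional, per the labels' protocols. Symbols came from GENCODE M21 (52081 of 55414 identifiers). There were 0 rows that name no gene and 0 columns of other samples.

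Genes were kept with filterByExpr (minimum count 10), which left 16167, and scaled by TMM. In edgeR 4.0.16 (R 4.3.3) 1 quasi-likelihood model with 12 groups over 24 libraries gave 29 comparisons with Benjamini-Hochberg adjusted p-values; interactions were contrasts of groups. The biological coefficient of variation was 0.0206. The fit was tested on simulated counts. Counts carry no molecular identifiers, so depth limits cover counting error only.

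The members, lists and comparisons were chosen with earlier results of these data known; the windows 3 to 6 h and 6 to 9 h (6 comparisons) were added after values were seen. Named are the 10 members, Nat10, and from each of 5 lists the largest called rise and fall (mean of at least 10 CPM) at 0 h in both clones, at 9 h in WT and between the clones at 0 h. A gene that this rule names is not reported here. Likeness used log2 CPM with a prior count of 2.

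Alternatives were RLE, upper-quartile and spike-in scaling (a genotype needing 1000 spike-in counts in each library, fitted on its own libraries), no filter, DESeq2 1.42.0, only the groups compared, a replicate block, and leaving out each library. Libraries with the same replicate number did not deviate together (correlations −0.028 to 0.040 over 66 pairs of groups), so the numbers were not taken as pairs.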

Additional observations from a re-analysis of the deposited data

Results flagged for a closer look

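The changes below differed between a clone and WT by an interaction test in edgeR, with values as the clone's log2 change minus that of WT. Both clones are set against the same WT libraries, so agreement between them is no independent support.

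From 0 to 3 h, KO1 changed less than WT in Srsf2 (−0.5714), Srsf9 (−0.4024), Srsf6 (−0.3665), Srsf1 (−0.2075) and Srsf7 (−0.1795). KO2 changed less in Srsf2 (−0.4894), Srsf6 (−0.3916), Srsf9 (−0.3663), Srsf7 (−0.2451), Srsf1 (−0.1805) and Srsf5 (−0.1649).

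From 3 to 9 h, the change in KO1 was above that in WT for Srsf2 (0.2729), Srsf5 (0.2466), Srsf3 (0.2425), Srsf9 (0.2145) and Srsf6 (0.0832), and below it for Srsf11 (−0.1081). The change in KO2 was above that in WT for Srsf2 (0.4337), Srsf5 (0.4319), Srsf3 (0.4155), Srsf9 (0.2423), Srsf7 (0.1281), Srsf6 (0.1209) and Srsf1 (0.1082), and below it for Srsf11 (−0.1099). These are differences of change and not of level. Of these later calls, 7 were lost in some fits with 1 library left out. Srsf11 lost its call in 6 of the fits for KO1 (adjusted p 0.0602 to 0.231), without KO1_3h replicate 2, WT_3h replicate 1 or either library of KO1_9h and WT_9h, and in 6 for KO2 (0.0504 to 0.201), without either library of KO2_3h and WT_9h, KO2_9h replicate 2 or WT_3h replicate 1. In KO1 Srsf6 lost it in 4 (0.139 to 0.232) and Srsf9 in 4 (0.0533 to 0.103), in both cases without KO1_3h replicate 2, KO1_9h replicate 2 or WT_9h replicate 1, and also without WT_3h replicate 2 for Srsf6 and WT_3h replicate 1 for Srsf9. In KO2 Srsf1 lost it in 3 (0.0598 to 0.212; KO2_3h replicate 2, WT_3h replicate 2, WT_9h replicate 1), Srsf7 in 2 (0.0507 and 0.0548; KO2_3h replicate 2, WT_9h replicate 2) and Srsf9 in 2 (0.0518 and 0.0576; KO2_9h replicate 2, WT_3h replicate 1).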

How the results depend on the processing

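Of 3180 member values under alternatives, 2939 kept their direction and side of the threshold, 121 lost and 36 gained a call, and 84 changed sign, 24 of them for calls. Leaving out 1 library ended 31 of 214 member calls, and 0 of the 116 with a log2 difference of at least 0.25. The causes were not tested. The replicate block left every count of members called as it was (both clones against WT at 0 h 5, WT 3 h against 0 h 10).

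Upper-quartile scaling gave Srsf3 from 0 to 3 h 0.1782 (WT), 0.1011 (KO1) and 0.1257 (KO2). From 0 to 9 h it gave, in WT, Srsf1 0.0175, Srsf7 0.0694 and Srsf9 0.2418, in KO1 Srsf2 0.2135 and Srsf9 0.0319, and in KO2 Srsf9 0.1050. From 3 to 9 h it gave Srsf5 in WT 0.0518 and Srsf4 in KO1 0.0229, and for the later interaction in KO1 Srsf7 −0.0118. Against WT it gave Srsf10 −0.0124 (both clones, 0 h), Srsf5 −0.0322 (KO1, 0 h), Srsf4 −0.0090 (KO2, 3 h), Srsf9 −0.0406 (KO1, 6 h) and −0.0352 (KO2, 6 h), Srsf4 −0.0146 (KO1, 9 h), and Srsf2 −0.0192 and Srsf7 −0.0366 (KO2, 9 h). RLE and DESeq2 gave Srsf10 0.0087 and 0.0079 (KO1, 6 to 9 h), Srsf4 0.0420 and 0.0414 (KO1, 3 to 9 h), Srsf5 0.0210 and 0.0219 (WT, 3 to 9 h), and against WT Srsf5 −0.0065 and −0.0074 (KO1, 0 h) and Srsf7 0.0068 and 0.0071 (KO1, 9 h). With only the groups compared Srsf5 was −0.0202 (KO1 against WT, 0 h). With no filter Srsf11 was 0.0014 (KO1 against WT, 0 h) and 0.0055 (early interaction, KO2).

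Spike-in scaling was not run for WT. From 0 to 3 h it gave Srsf1 −0.0733 in KO1, and in KO2 Srsf1 −0.5599, Srsf9 −0.2371, Srsf10 −0.4398 and Srsf11 −0.3075. From 3 to 6 h it gave Srsf4 −0.2085 and Srsf5 −0.0929 in KO1, and −0.3347 and −0.0808 in KO2. From 3 to 9 h it gave Srsf4 0.2075 and Srsf11 0.0411 in KO1, and Srsf4 −0.3543 and Srsf5 −0.0439 in KO2. From 6 to 9 h all 10 members were called in KO1, against 6, with Srsf3 0.4066, Srsf4 0.4160, Srsf6 0.2896, Srsf7 0.2814, Srsf9 0.2988 and Srsf10 0.5333, and 4 were called in KO2, against 8. Of all genes in that window, 11103 of 14887 were called in KO1 and 5609 of 15104 in KO2. From 0 to 9 h in KO2 it gave Srsf2 −0.9787, Srsf6 −0.2060 and Srsf11 −0.9616.

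Between KO2 and KO1 at 0 h, DESeq2 called 1 member and no filter 6, against 2; of the core spliceosome list DESeq2 and only the groups compared each called 6, against 10; no filter called 0 kinases, against 1. Leaving out 1 library there called 1 to 2 members, 5 to 7 core spliceosome, 6 to 10 hnRNP and PTB, 4 to 6 SR-like and 0 to 1 kinase genes. It called 3 to 5 members in both clones at 0 h and 3 to 4 in KO2 (against 5), and 3 to 6 (KO1) and 5 to 8 (KO2) in the later interaction. It called 11 to 16 SR-like genes in both clones at 0 h, and in the early interaction 10 to 16 core spliceosome genes (KO2) and 3 to 6 NMD genes (KO1).

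Values that crossed 0 without 1 library were small. Over time, they ranged for Srsf10 from −0.0204 to 0.0045 and Srsf2 from −0.0069 to 0.0452 (KO1, 6 to 9 h), and for Srsf4 from −0.0736 to 0.0020 (KO2, 6 to 9 h) and −0.0314 to 0.1288 (WT, 3 to 9 h). In interactions, they ranged for Srsf11 from −0.0314 to 0.0293 (KO2, early), Srsf4 from −0.0339 to 0.1268 (KO2, later) and Srsf7 from −0.0021 to 0.0201 (KO1, later). Against WT at 0 h, they ranged for Srsf5 from −0.0323 to 0.0210 (both clones), −0.0199 to 0.0331 (KO1) and −0.0448 to 0.0089 (KO2), Srsf11 from −0.0286 to 0.0122 and Srsf4 from −0.0422 to 0.0233 (KO1), and Srsf9 from −0.0208 to 0.1132 (KO2). Against WT later, they ranged for Srsf4 from −0.0299 to 0.1075 (KO2, 3 h) and −0.0342 to 0.1255 (KO1, 9 h), Srsf9 from −0.0439 to 0.0732 (KO1, 6 h) and −0.0324 to 0.0467 (KO2, 6 h), and Srsf1 from −0.0663 to 0.0009 (KO2, 9 h).

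Among all genes called, upper-quartile scaling moved the share that was higher from 53.5% to 64.9% (WT, 0 to 3 h), 52.9% to 63.0% (WT, 0 to 9 h), 53.0% to 41.9% (both clones, 0 h) and 56.1% to 41.9% (KO1, 9 h). Spike-in scaling moved it from 49.97% to 96.0% (KO1, 6 to 9 h) and 47.8% to 13.0% (KO2, 3 to 6 h), and RLE from 48.0% to 60.2% (KO2, later interaction). Srsf4 had the fewest counts of the members, 282 to 623 per library, which limits the precision of its values.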
